A study of Mus musculus with 6 samples.

Results

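The genes described here are 8 Toll-like receptors (Tlr1, Tlr2, Tlr4, Tlr6, Tlr7, Tlr8, Tlr9 and Tlr13), the co-receptor Cd14 and the trafficking protein Unc93b1. They were found by Entrez gene ID, and all 10 were among the 36528 gene IDs listed. Messenger RNA levels were measured by RNA sequencing in HOXB-8 cells, immortalised mouse myeloid progenitors from bone marrow that proliferate under a homeobox gene and that the extraction notes call iMACs. The Parental group (3 libraries) carried a control guide RNA named Luc and was Irf2 wild type. The IRF2_KO group (3 libraries) came from lines made with a guide RNA to Irf2, the gene of a DNA-binding regulator of interferon responses. The labels give no age, treatment or time for either group. The extraction notes write n = 3 beside the lines without saying what it counts, and whether a line was a single clone is not given in the sources used here. Separate cultures are not stated for the libraries of either group, and the p-values therefore measure only library-to-library spread, possibly technical.

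Toll-like receptors recognise molecules of microbes and signal through adaptors that carry the same TIR domain as the receptor tails. TLR4 at the cell surface senses lipopolysaccharide, which CD14 hands over, and TLR2 senses lipoproteins together with TLR1 or TLR6. TLR7, TLR8, TLR9 and TLR13 sense nucleic acids inside endolysosomes, where UNC93B1 delivers them from the endoplasmic reticulum and proteases trim them. Macrophages are among the cells in which these receptors are best known.

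The total count per library was 33422590 to 39925038 in Parental and 29070160 to 34051219 in IRF2_KO. Of 13353 genes that passed the filter on low counts, 47.2% were called different at an adjusted p under 0.05 (edgeR quasi-likelihood test), 23.6% higher in IRF2_KO and 23.6% lower. The CPM ranges of the groups did not overlap for 54.0% of them, and the median log2 fold change of all tested genes was -0.01. Irf2 itself had 41.1, 42.4 and 41.1 CPM (reads scaled to a common library total) in Parental and 40.3, 37.0 and 40.1 in IRF2_KO, a log2 fold change of -0.08 (SE 0.05, adjusted p = 0.209 by edgeR). A guide RNA edit can leave a transcript in place, so the gene count does not check the label. Markers of macrophages, neutrophils and progenitors are given after the receptors.

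Of the 10 genes, 5 were higher in IRF2_KO (Tlr2, Tlr7, Tlr8, Tlr13 and Unc93b1), 1 was lower (Cd14), 2 were not called (Tlr4 and Tlr6) and 2 were too low to test (Tlr1 and Tlr9). The background of calls is 23.6% in each direction. Tlr8 passed the filter on low counts only through its IRF2_KO libraries and so had to differ. In 7 of the 10 genes the CPM of the groups did not overlap, against 54.0% of all tested genes. The 7 include Tlr1, which was not tested, so the counts are not fully alike. All 3 endosomal receptors that could be tested were higher, Tlr8 among them, and 1 of the 3 tested surface receptors was.

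**Figure D1:**
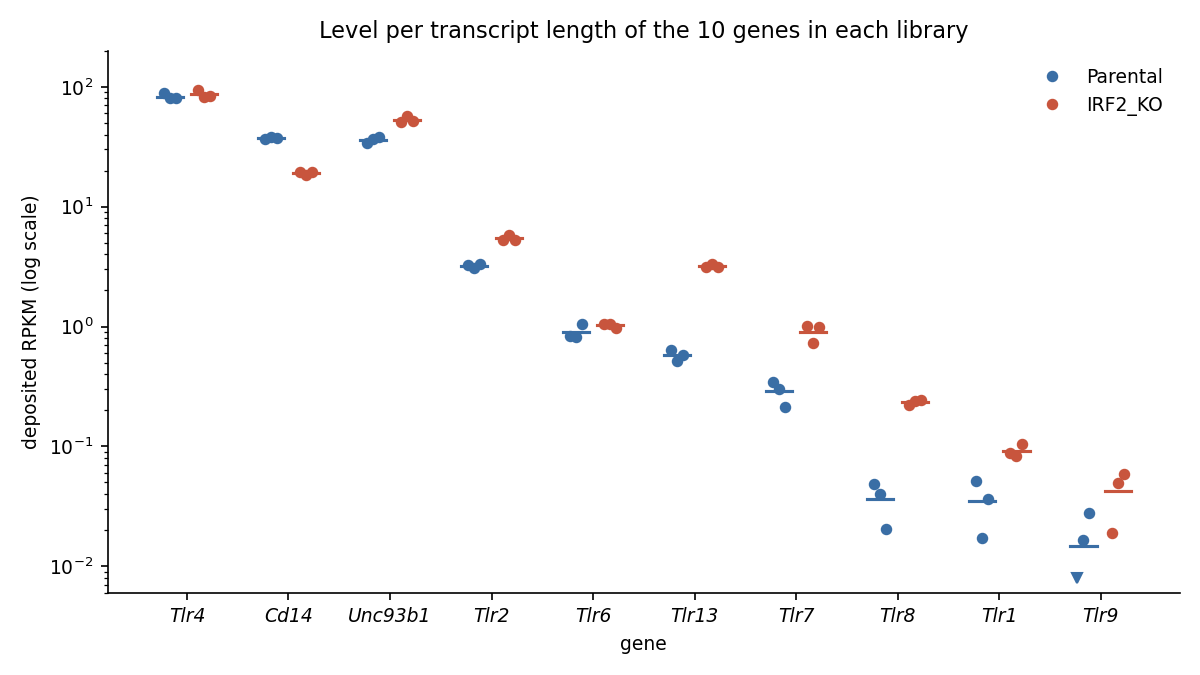
Level of each of the 10 genes in every library, as deposited RPKM on a log axis, with 3 points per group and the group mean. Tlr4 lay highest in both groups, and the Tlr9 value of 0 in Parental 1 is drawn as a triangle at the bottom of the axis.

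The receptors are shown first by the DNA ahead of their transcription start, since Irf2 encodes a DNA-binding factor. Windows reaching 250 bases before to 50 after a start were in the RefSeq table (GRCm38.p6) for 6 of the 10 genes, and 8 windows belong to them. Tlr4, Tlr7, Cd14 and Unc93b1 had no entry. Both strands were searched for the paired interferon regulatory factor motif (GAAANNGAAA, where N is any base), the composite ETS and interferon regulatory factor motif (GGAANNGAAA) and the PU.1 core (GAGGAA). The paired and the composite motif share their second element, and the PU.1 core can overlap the GGAA of the composite motif. A match is a description of letters, not a binding site. The 150 bases before the start, read 5′ to 3′ on the gene's strand, are given for the called receptors Tlr13 (chrX:106143125-106143274, plus strand), Tlr8 (chrX:167264330-167264479, minus strand) and Tlr2 (chr3:83841609-83841758, minus strand). Tlr6 (first window, chr5:64959167-64959316, minus strand) is given because it holds the paired motif. Tlr11 (chr14:50357764-50357913, plus strand), a receptor outside the 10 genes, holds it too, but was added after its values were seen. The window of Tlr5, also outside the 10 genes, was searched as well and held none of the motifs. Tlr3 and Tlr12 were not searched. Capitals mark motif letters.
Tlr13: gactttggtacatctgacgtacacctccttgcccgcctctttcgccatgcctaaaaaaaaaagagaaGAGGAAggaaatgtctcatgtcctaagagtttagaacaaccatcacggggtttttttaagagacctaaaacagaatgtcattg
Tlr8: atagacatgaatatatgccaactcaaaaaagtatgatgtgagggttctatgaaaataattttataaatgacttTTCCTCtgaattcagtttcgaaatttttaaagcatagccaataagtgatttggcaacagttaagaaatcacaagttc
Tlr2: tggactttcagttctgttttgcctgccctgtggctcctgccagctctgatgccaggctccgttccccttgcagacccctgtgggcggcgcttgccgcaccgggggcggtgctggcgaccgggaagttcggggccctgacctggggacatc
Tlr6: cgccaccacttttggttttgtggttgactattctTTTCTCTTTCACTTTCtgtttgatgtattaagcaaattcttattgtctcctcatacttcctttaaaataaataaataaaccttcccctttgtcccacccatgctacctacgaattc
Tlr11: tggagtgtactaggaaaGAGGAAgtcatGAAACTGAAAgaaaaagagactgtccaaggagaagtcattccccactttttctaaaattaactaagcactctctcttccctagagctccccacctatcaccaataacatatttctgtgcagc

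The starts used for Tlr2 and Tlr6 lie inside the spans of those genes as RefSeq gives them. Tlr6 holds 2 overlapping matches of the paired motif, both on the minus strand of the window, with first bases 116 and 110 bases before the start. Of all 32851 windows of this length, 3.44% hold the paired motif, 2.72% the composite motif and 28.3% the PU.1 core. Among the 8 windows of the 10 genes, 1 holds the paired motif, 0 the composite motif and 4 the PU.1 core. The core lies 83 bases before the start in Tlr13 and 77 bases before it in Tlr8 (on the other strand), while Tlr2 holds none of the motifs. The window with the paired motif belongs to Tlr6, which was not called different.

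Among the surface receptors, Tlr4, the lipopolysaccharide receptor (chromosome 4, 66827551 to 66846581), was the most abundant of all. Its libraries had 347, 317 and 317 CPM in Parental and 373, 321 and 332 CPM in IRF2_KO. The groups overlapped, and the log2 fold change was 0.06 (SE 0.05, adjusted p = 0.349 by edgeR, n = 3 per group). Tlr2, which pairs with TLR1 or TLR6 to sense lipoproteins (chromosome 3, 83836272 to 83841824), had 10.2, 9.65 and 10.4 CPM in Parental and 16.5, 18.1 and 16.6 CPM in IRF2_KO. All 3 IRF2_KO libraries lay above all 3 Parental libraries. The rise was 1.68-fold, a log2 fold change of 0.75 (SE 0.07, adjusted p = 2.21e-07 by edgeR).

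Tlr6, a partner of TLR2, and Tlr1, the other partner, are close relatives that lie 19492 bases apart on chromosome 5. Only uniquely aligned reads were counted, so reads shared by near-identical stretches of Tlr1 and Tlr6 are absent from both. Tlr6 also overlaps Fam114a1 (5.21 CPM in Parental and 8.68 in IRF2_KO, log2 fold change 0.74), and whether strand was used in counting is not given in the sources used here. Tlr6 had 4.19, 4.16 and 5.30 CPM in Parental and 5.24, 5.26 and 4.90 CPM in IRF2_KO. The groups overlapped through Parental 3, and the log2 fold change was 0.17 (SE 0.12, adjusted p = 0.263 by edgeR). Tlr1 had 7, 2 and 5 reads in Parental and 9, 8 and 12 in IRF2_KO, too few to pass the filter. The ratio of its summed reads, scaled for library size, was 2.55 with an exact binomial (Clopper-Pearson) 95% interval of 1.31 to 5.23, which covers counting error only. With no filter its adjusted p was 0.0619 by edgeR. It was called where Parental 1 was left out (log2 fold change 1.69, adjusted p = 0.0288) or IRF2_KO 2 (1.40, adjusted p = 0.0465), and not where Parental 2 (1.05, adjusted p = 0.116) or Parental 3 (1.33, adjusted p = 0.0829) was, all by edgeR.

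Cd14, the co-receptor that passes lipopolysaccharide to TLR4 and its partner LY96 (chromosome 18, 36725064 to 36726815), had 56.9, 59.2 and 57.9 CPM in Parental and 29.8, 28.2 and 29.8 CPM in IRF2_KO. No IRF2_KO library came near a Parental one. The log2 fold change was -0.99 (SE 0.05, 1.98-fold lower, adjusted p = 3.31e-11 by edgeR), and over 17 alternative settings it lay between -1.02 and -0.94. Cd14 was the only one of the 8 tested genes called lower, and 313th from the lowest log2 fold change of the 13353. Its level per transcript length against that of Tlr4 was 0.421, 0.480 and 0.469 in Parental and 0.205, 0.226 and 0.230 in IRF2_KO. All 3 IRF2_KO ratios lay below all 3 Parental ones, with a log2 difference of -1.05, and the exact two-sided permutation p was 0.10, which is the smallest that 3 against 3 libraries can give. In bulk RNA, fewer cells with a transcript and less of it per cell cannot be told apart. Ly96, the part of the receptor complex that binds lipopolysaccharide, had only 6, 4 and 7 reads in Parental and 8, 6 and 13 in IRF2_KO.

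The endosomal receptors were all low next to Tlr4, and the 3 that could be tested were higher in IRF2_KO by 3.16-fold to 6.34-fold. The upper end was Tlr8, which passed the filter only through IRF2_KO and so had to differ. Whether these fold changes differ from that of Tlr2 was not tested. Tlr13, a sensor of bacterial ribosomal RNA (chromosome X, 106143275 to 106160493), had 2.85, 2.32 and 2.56 CPM in Parental and 13.9, 14.6 and 14.0 CPM in IRF2_KO. Every IRF2_KO library was well above every Parental library, by 5.46-fold (log2 fold change 2.45, SE 0.10, adjusted p = 1.04e-12 by edgeR). It ranked 118th of the 13353 log2 fold changes from the highest. Its log2 fold change was lowest, 1.41, on the log2(RPKM + 1) scale, which understates changes of low genes.

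Tlr7, a sensor of single-stranded RNA (chromosome X, 167303380 to 167330574), had 56, 42 and 35 reads in Parental and 123, 84 and 136 in IRF2_KO, or 1.18 ± 0.278 and 3.70 ± 0.670 CPM (SD, n = 3). The lowest IRF2_KO library, IRF2_KO 2, was still above the highest Parental one, and the rise was 3.16-fold (log2 fold change 1.66, SE 0.19, adjusted p = 1.43e-06 by edgeR). Tlr8 lies 39051 bases from Tlr7 (chromosome X, 167241123 to 167264329) and is its close relative. It had 7, 5 and 3 reads in Parental and 24, 25 and 30 in IRF2_KO. The ratio of summed reads was 6.49 (Clopper-Pearson 95% interval 3.71 to 12.1) and the fitted log2 fold change was 2.66 (SE 0.37, adjusted p = 1.20e-05 by edgeR). That rise was the 92nd highest of the 13353, on few reads, and its passing of the filter rested on IRF2_KO. Tlr9, the sensor of unmethylated DNA (chromosome 9, 106222598 to 106226876), had 0, 2 and 4 reads in Parental and 2, 5 and 7 in IRF2_KO. Those groups overlapped, and the ratio of summed reads was 2.88 with an interval of 1.04 to 9.13 (adjusted p = 0.207 by edgeR with no filter). That interval covers counting error only. Tlr9 was too low for the main test at this depth, where 3 reads correspond to 0.0751 to 0.103 CPM.

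Unc93b1, the chaperone that carries the endosomal receptors out of the endoplasmic reticulum (chromosome 19, 3935158 to 3949340), had 79.0, 85.8 and 88.5 CPM in Parental and 118, 131 and 120.4 CPM in IRF2_KO. It was 1.46-fold higher in IRF2_KO, with no overlap (log2 fold change 0.55, SE 0.05, adjusted p = 1.76e-07 by edgeR). Its level per length against that of Tlr13 was 52.9, 70.8 and 66.0 in Parental and 16.3, 17.2 and 16.5 in IRF2_KO. Among 6 such ratios of a pair of members, each exact two-sided permutation p was 0.10, with a Benjamini-Hochberg adjusted value of 0.10. With 3 against 3 libraries no smaller p was possible. The members were chosen with results known, so no conclusion is drawn from these p-values. Tlr13 to Tlr7 was 1.86, 1.71 and 2.71 in Parental and 3.09, 4.58 and 3.18 in IRF2_KO, Tlr8 to Tlr7 was 0.140, 0.133 and 0.0957 against 0.218, 0.332 and 0.246, and Tlr6 to Tlr2 was 0.256, 0.270 and 0.318 against 0.199, 0.182 and 0.185. Tlr2 to Tlr4 was 0.0370, 0.0382 and 0.0414 against 0.0557, 0.0707 and 0.0626. In each of these ratios the groups did not overlap. Each pair holds at least 1 gene whose own CPM did not overlap between the groups, as was so for 54.0% of all tested genes. The separation of the ratios therefore follows in part from the choice of pairs.

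**Figure D2:**
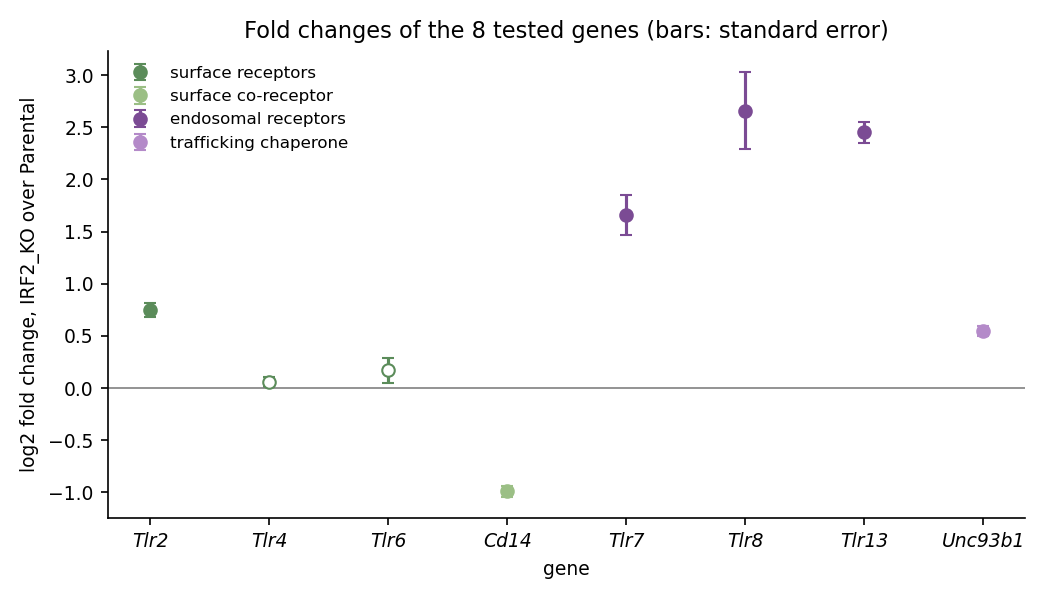
Log2 fold change of IRF2_KO against Parental for the 8 tested genes, with bars of 1 standard error and colours for their role; filled circles mark genes called and open circles the ones that were not. Cd14 lies at -0.99, Tlr4 at 0.06 and Tlr6 at 0.17, and the other 5 lie at 0.55 or higher.

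Levels of different genes are compared here by RPKM, which the authors deposited and which corrects for length. In Parental the order was Tlr4 (82.7 ± 4.58, SD, n = 3), Cd14 (37.7 ± 0.701), Unc93b1 (36.2 ± 2.03), Tlr2 (3.21 ± 0.134), Tlr6 (0.903 ± 0.128), Tlr13 (0.579 ± 0.0615) and Tlr7 (0.287 ± 0.0684), followed by Tlr8, Tlr1 and Tlr9 at or below 0.0518. In IRF2_KO it was Tlr4 (86.9 ± 6.48), Unc93b1 (53.2 ± 3.28), Cd14 (19.1 ± 0.490), Tlr2 (5.45 ± 0.312), Tlr13 (3.20 ± 0.101), Tlr6 (1.03 ± 0.0411), Tlr7 (0.908 ± 0.161), Tlr8 (0.235 ± 0.0131), Tlr1 (0.0920 ± 0.0116) and Tlr9 (0.0423 ± 0.0208). The library ranges of Cd14 and Unc93b1 overlapped in Parental, as did those of Tlr8 with Tlr1 and of Tlr1 with Tlr9. In IRF2_KO only Tlr6 and Tlr7 overlapped among neighbours in the order. Tlr13 thus stood below Tlr6 in Parental and above it in IRF2_KO.

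Of the summed RPKM of the 8 receptors, Tlr4 made up 93.9% to 94.4% in Parental and 87.9% to 89.8% in IRF2_KO. The share of the endosomal receptors was 1.11%, 1.04% and 0.980% in Parental and 4.16%, 4.63% and 4.68% in IRF2_KO. The summed RPKM of the endosomal receptors was 1.04, 0.881 and 0.835 against 4.37, 4.32 and 4.45, so the libraries of the groups did not overlap. The surface receptors summed to 92.1, 84.0 and 84.4 against 101, 89.1 and 90.7, and there they did. Without Tlr4, the surface receptors summed to 4.15, 3.90 and 4.40 against 6.38, 6.94 and 6.37. No p is given for these sums, since the members were chosen with results known.

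**Figure D3:**
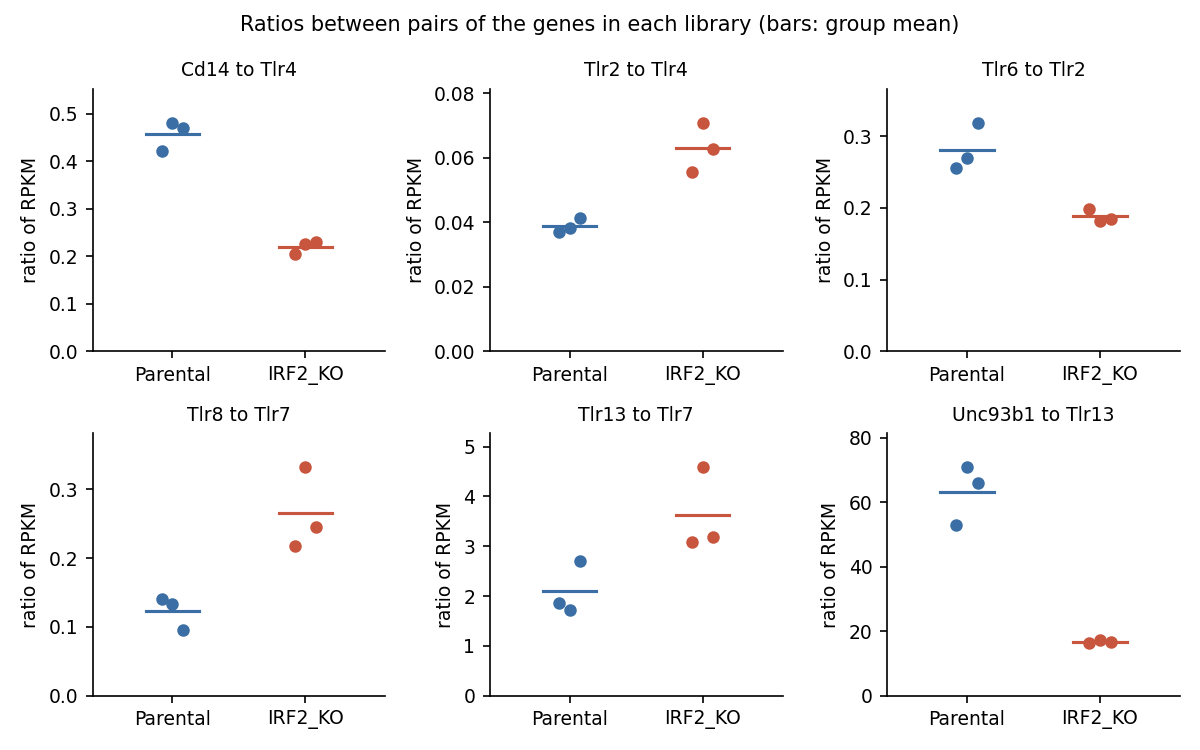
Ratios of deposited RPKM between 6 pairs of genes in each of the 6 libraries on linear axes that start at 0, 1 panel per pair, with a line at the group mean. The Parental points of Unc93b1 to Tlr13 span 52.9 to 70.8 and the IRF2_KO points 16.3 to 17.2, while those of Cd14 to Tlr4 span 0.421 to 0.480 and 0.205 to 0.230.

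The 4 remaining Toll-like receptor genes of the mouse were read too. Tlr5, the flagellin receptor, had 3, 3 and 8 reads in Parental and 19, 13 and 18 in IRF2_KO (log2 fold change 2.11, SE 0.44, adjusted p = 6.93e-04 by edgeR). Tlr11, a profilin receptor that also depends on UNC93B1, had 0 reads in all Parental libraries and 15, 19 and 14 in IRF2_KO. Taking 3 reads over the whole Parental group as the floor, it was at least 19.7-fold higher (adjusted p = 1.07e-05 by edgeR). Both passed the filter only through IRF2_KO. Tlr3, the receptor for double-stranded RNA, had 5, 4 and 13 reads in Parental and 0, 2 and 2 in IRF2_KO and was too low to test, with a ratio of summed reads of 0.224 (Clopper-Pearson 95% interval 0.0561 to 0.660). With no filter it was called lower (log2 fold change -2.07, adjusted p = 0.0402 by edgeR). This is opposite in direction to the endosomal receptors above, although TLR3 also senses nucleic acid in endosomes. That call rests on few reads, most of them in Parental 3. It is not comparable with calls of the main fit, since leaving out the filter moved the adjusted p of Tlr13 from 1.04e-12 to 6.05e-106 by edgeR. Tlr12 had 0 reads in every library.

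Around the receptors, 65 genes were read in 9 lists by role, drawn up with earlier results of these data known. Of the 58 tested, 26 were higher in IRF2_KO and 4 lower, with a median log2 fold change of 0.08, against 23.6% of all tested genes in each direction and a median of -0.01. Of the 26, 2 (Tlr5 and Tlr11) passed the filter on low counts only through IRF2_KO. All 4 tested receptor-cleaving proteases were higher, namely Lgmn (log2 fold change 2.01), Ctss (1.86), Ctsb (0.58) and Ctsl (0.32), and Ctsk was too low to test. Of the nucleic acid digesting enzymes 3 of 5 were higher, Pld3 (0.63), Dnase2a (0.30) and Pld4 (0.48), the last of which lost its call under 9 alternatives, among them leaving out Parental 1, Parental 3, IRF2_KO 2 or IRF2_KO 3 (range over the alternatives 0.26 to 0.65). Among co-receptors and surface partners, 3 of 4 tested were higher. They were Cd180, a surface relative of the receptors (13.1 ± 0.965 CPM in Parental and 28.3 ± 2.32 in IRF2_KO, log2 fold change 1.11), Cd36 (4.45 ± 0.294 and 15.2 ± 1.02, 1.77) and Clec7a, the receptor for fungal glucans (1.86 ± 0.323 and 9.85 ± 0.579, 2.40). Lbp was not called (-0.07, adjusted p = 0.168 by edgeR).

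In the folding and trafficking list 3 of 8 were higher, Hsp90b1 (0.18), the receptor chaperone also called gp96, Slc15a4 (0.16) and Rab7b (0.31), and Ap3d1 was lower (-0.21). Over all tested genes the share was 23.6% in each direction, for this list and the next ones. Slc15a4 lost its call without Parental 2 or Parental 3 (range 0.13 to 0.19), and Rab7b without Parental 2, IRF2_KO 1 or IRF2_KO 3 (0.18 to 0.38). Of 5 tested TIR adaptors, Ticam2 was higher (0.19), a call lost without any of Parental 2, Parental 3, IRF2_KO 1 or IRF2_KO 3 (0.14 to 0.23). Myd88, the main adaptor, was not called (-0.13, adjusted p = 0.0538 by edgeR) but was called lower without Parental 1 or IRF2_KO 2 (range -0.17 to -0.09). Not called were Tirap (0.06) and Ticam1 (-0.09). Of 17 kinases and ubiquitin ligases, 4 were higher and 2 lower, no more than the share over all tested genes. Irak2 (0.70), Ikbke (0.27), Ikbkg (0.25) and Traf6 (0.13) were higher, and Tab2 (-0.16) and Irak1 (-0.10) lower. Traf6 lost its call without Parental 2, Parental 3, IRF2_KO 1 or IRF2_KO 3 (0.10 to 0.15), Irak1 when any library except Parental 1 was left out (-0.13 to -0.09), and Tab2 without IRF2_KO 3 (-0.19 to -0.14). Scaling by library size alone also removed the calls of Slc15a4, Rab7b, Ticam2 and Traf6. Leaving out the filter removed those of Ticam2, Traf6 and Irak1, and limma-trend those of Rab7b, Ticam2 and Irak1. Irak1 was also not called with RLE, DESeq2 or the 1 CPM filter. Myd88 was also called lower with library size alone or no filter.

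Among downstream transcription factors, Irf7, which induces type I interferon genes, rose from 0.487 ± 0.0776 to 9.21 ± 1.39 CPM (log2 fold change 4.24, SE 0.18, adjusted p = 1.38e-12 by edgeR). Irf5, which carries endosomal receptor signals, rose from 8.71 ± 0.747 to 18.1 ± 0.538 CPM (1.05, SE 0.08). Irf3, Nfkb1 and Rela were not called. Thus 2 of 5 were higher in this list, beside 23.6% of all tested genes in each direction, a share that also applies to the next list. In the negative regulators 4 of 8 were higher, Socs1 (1.07), Tnfaip3 (0.67), Cyld (0.31) and Nrros (0.15, its call lost without Parental 1, IRF2_KO 2 or IRF2_KO 3, range 0.10 to 0.20), and Sigirr was lower, with 35.5 ± 3.03 CPM in Parental and 14.8 ± 1.76 in IRF2_KO (-1.25, SE 0.08).

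**Figure D4:**
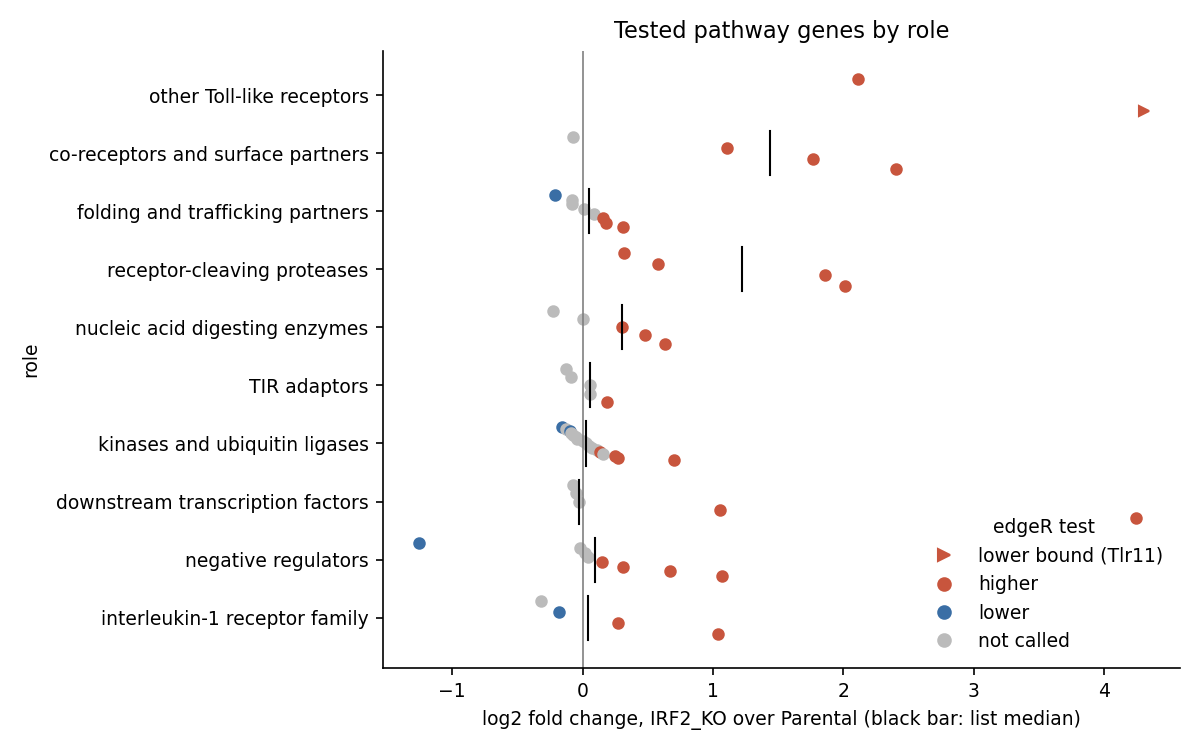
Log2 fold change of each tested gene of the pathway lists by role, with the list median as a bar and colours for higher, lower and not called. The 4 proteases and all co-receptors except Lbp (-0.07) lie to the right of 0, the adaptors lie between -0.13 and 0.19, the kinases lie within -0.16 and 0.70 with Irak2 at the upper end, and Tlr11, with 0 Parental reads, is drawn as a triangle at its lower bound.

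Markers of cell types and of the interferon response were read beside the receptors, against a share over all tested genes of 23.6% higher and 23.6% lower. Of 17 macrophage markers 12 were tested and 11 were higher, 2 of which (Msr1 and Siglec1) passed the filter on low counts only through IRF2_KO. The summed RPKM of the list was 302 to 312 in Parental and 795 to 814 in IRF2_KO. Lpl, a lipase, rose from 71.8 ± 1.23 to 472 ± 15.0 CPM (log2 fold change 2.72), Gpnmb from 185 ± 2.04 to 535 ± 6.24 CPM (1.53), Lyz2, a lysozyme, from 193 ± 5.43 to 480.3 ± 9.97 CPM (1.32) and Csf1r, the receptor for a macrophage growth factor, from 4.62 ± 0.0535 to 18.0 ± 0.959 CPM (1.96). Cd163, a haemoglobin scavenger receptor, was too low to test and lay the other way, with 11, 2 and 10 reads in Parental and 0 in each IRF2_KO library. C1qb had 0 reads, and Marco, C1qa and C1qc had at most 1.

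Of the monocyte markers 4 of 5 were tested, and Ly6c2 (0.31) and Ccr2 (0.89) were higher and Itgal (-0.45) lower. All 4 tested conventional dendritic cell markers of 7 were higher, Zbtb46 (2.25), Itgax (1.41), Clec9a (1.36) and Clec10a (1.31), with a summed RPKM of 10 to 10.2 against 24.1 to 27.4. Most of that sum was Clec10a, with a mean RPKM of 9.49 in Parental and 23.6 in IRF2_KO. Clec9a passed the filter only through IRF2_KO (11, 4 and 14 reads in Parental and 26, 11 and 24 in IRF2_KO) and lost its call on the log2(RPKM + 1) scale. The progenitor list had 4 of 5 tested genes lower, Mycn (82.7 ± 1.49 CPM in Parental and 4.42 ± 0.188 in IRF2_KO, -4.23), the growth factor receptors Kit (-3.26) and Flt3 (-0.85), and Myb (-0.44). Its summed RPKM was 245 to 246 against 169 to 178, and Hoxb8 was not called (0.09, adjusted p = 0.142 by edgeR) except without IRF2_KO 2 (range 0.05 to 0.13).

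Of 14 neutrophil markers 5 were higher and 5 lower, and their summed RPKM was 11029.8 to 11938 in Parental and 9127 to 10653 in IRF2_KO. The elastase gene Elane had 2989 ± 98.9 CPM in Parental and 924 ± 72.2 in IRF2_KO (-1.69), and Camp (-0.92), Retnlg (-0.55), Mpo (-0.52) and Csf3r (-0.50) were lower too. Elane had the largest fall within the sum, with a mean RPKM of 3158 in Parental and 982 in IRF2_KO. Prtn3 (4007 and 4262) and Ctsg (3714 and 4093), the other large parts of the sum, were no lower in IRF2_KO. Higher were Ltf, lactoferrin (1.38), Ngp (0.92), Mmp9 (0.65), Mmp8 (0.16) and Ctsg (0.13). Of these, Ctsg lost its call without Parental 1, Parental 2, IRF2_KO 2 or IRF2_KO 3 (range 0.09 to 0.18), Mmp9 without Parental 1, Parental 3 or IRF2_KO 2 (range 0.16 to 0.79) and Mmp8 without Parental 3 (range 0.13 to 0.19). Ctsg also lost it with library size alone and with limma-trend, and Mmp9 with DESeq2 and limma-trend. Of the plasmacytoid dendritic cell markers only Cox6a2 could be tested, which was not called, and Siglech had 0 reads. Ms4a1, Pax5, Cd3e, Cd4 and Cd8a had 0 reads, as did Hba-a1.

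The interferon-stimulated genes had a summed RPKM of 30.9 to 32.2 in Parental and 274 to 281 in IRF2_KO. Of 18 genes 15 were tested and called higher, but 6 of these (Oas2, Oas3, Ifit1, Ifit3, Xaf1 and Rtp4) passed the filter only through IRF2_KO and so had to differ. Among those that passed in both groups, Rsad2 rose from 13, 10 and 24 reads to 4472, 3915 and 4743 and Usp18 from 0.740 ± 0.151 to 52.6 ± 1.76 CPM. The part of these genes and cell types in the receptor results was not tested.

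By the closeness of their profile over the 6 libraries, the genes most like Tlr8 were Epn2, Ak8, Vax1 and Clec7a (distances of centred log2 CPM of 0.29, 0.35, 0.37 and 0.40). Clec7a is a receptor of the pathway lists above. The genes most like Cd14 were Sh3pxd2a, BC029722, Stat4 and Naip6 (0.06, 0.09, 0.12 and 0.14). Each of those 8 differs from Parental in the same direction as the member it resembles, as the distance is taken on the same libraries.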

How the data were processed

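RNA sequencing of 6 libraries of HOXB-8 cells was analysed, 3 Parental and 3 IRF2_KO by the group label. Per the labels' protocols, a kit for stranded total RNA was used after column purification and DNase treatment. The molecule label instead says polyadenylated RNA, and this was not settled. The submitters' processing notes name GSNAP and the build GRCm38; versions, annotation and use of strand: not given in the sources used here. The deposited counts hold, per the file headers, reads aligned uniquely to each gene, so near-identical copies are undercounted. RPKM scaled by a size factor is deposited per gene and served to compare genes with each other. Over 10995 genes with at least 50 reads in each library, its ratio to the count was constant up to 1 factor per library.

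Symbols came from a RefSeq table for 31049 of 36528 IDs. IDs without a symbol stayed in the tests and held 1.86% to 1.92% of the counts. Of 190 list genes 189 were matched. In R 4.3.3, counts were filtered by filterByExpr (13353 genes), scaled by TMM (factors 0.987 to 1.02) and tested by the robust quasi-likelihood F-test of edgeR 4.0.16, two-sided; p-values were adjusted by Benjamini-Hochberg and genes called under 0.05. CPM uses TMM-adjusted library sizes, and a standard error is the log2 fold change over the root of the F statistic. Permutation tests used scipy 1.17.1. Mean chi-square per gene within groups was 2.78 to 10.1, above sampling noise, so no library was treated as another one sequenced again. Repeats of the same culture cannot be told apart from separate cultures by this value.

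The members, lists and naming rule were chosen with earlier results of these data known. The rule names all members, Irf2, up to 4 tested genes per list with the smallest adjusted p, any gene needed to account for a count of 5 or fewer, the nearest protein-coding gene on each side of each member, and the 4 genes most like the called member with the largest rise and the one with the largest fall. Other genes of a list (those with few or no reads, those not called, and Cd163) were named after their values were seen, and not every gene that the rule names is printed. Tlr11 was added to the sequences after its values were seen.

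Alternatives covered scaling (RLE, upper-quartile, library size alone), tools (DESeq2 1.42.0, limma-voom, and limma-trend of limma 3.58.1 on log2(RPKM + 0.1) and log2(RPKM + 1)), filters (none, or 1 CPM in 3 libraries), stricter calls (0.01, or glmTreat against 1.5-fold), and leaving out each library. Simulated data used real means and library sizes (13235 genes), with 200 genes set to change. The share of altered genes called was 62.0% at 1.25-fold (50 genes), 81.6% at 1.5-fold (49), 91.8% at 2-fold (49) and 100% at 4-fold (50). Of 180 calls, 7.78% were false, and with no gene altered 0 were called. In the real data 47.2% of genes were called, so these shares need not hold there.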

Additional observations from a re-analysis of the deposited data

How the results depend on the processing

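Against a minimum of 1.5-fold (glmTreat), 3 of the 10 genes were called higher in place of 5, 1019 genes in place of 6296, and 11 pathway genes in place of 30. Tlr2 (adjusted p = 0.0626) and Unc93b1 (adjusted p = 1) were the members that lost their call there. None of the 8 tested members changed direction under the alternatives run. Some list genes that were not called did change sign, such as Cnpy4 (-0.06 to 0.07) and Cxcl10 (-0.21 to 0.40). With each library left out in turn, the members called higher were 5 to 6, the 6th being Tlr1 without Parental 1 or without IRF2_KO 2. The genes called were 5256 to 6216 and the pathway genes called 23 to 31. The member called lower was Cd14 under all of the alternatives. Tlr8 could not be tested with a filter of 1 CPM in 3 libraries. On log2(RPKM + 1), the log2 fold changes of Tlr7 (0.57) and Tlr8 (0.25) were smallest. Taken from CPM in place of RPKM, the endosomal share of the receptors was 1.14% in Parental and 4.93% in IRF2_KO.

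No paired analysis was possible because the labels give no replicate numbers. Depth limits Tlr1, Tlr8 and Tlr9, whose highest library had 30 reads. An effect of the Irf2 guide RNA and any other difference between the lines cannot be told apart.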

Other observations

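In the family of interleukin-1 receptors, whose signalling members share the TIR domain of the Toll-like receptors, 2 of 4 tested genes were higher and 1 lower. Over all tested genes the share was 23.6% in each direction. Il1r2, a decoy receptor for interleukin-1 that lacks that domain, rose from 51.0 ± 0.802 to 105 ± 2.36 CPM (SD, n = 3 libraries per group; log2 fold change 1.04, SE 0.05, adjusted p = 2.63e-12 by edgeR). Il18rap, a subunit of the interleukin-18 receptor, was higher by 0.27 on the log2 scale. Il1rap, the shared co-receptor chain, was lower (-0.18, range over the alternatives -0.22 to -0.15), a call that was lost without IRF2_KO 3 and with limma-trend. Of 15 genes that Toll-like receptor signals induce, 8 were tested and 4 were higher, beside the same 23.6% of all tested genes. They were Nfkbia, the inhibitor that NF-kappaB itself induces (1.11), Ccl4 (0.56), Ptgs2 (0.45) and Nos2 (0.44). Ccl3 was lower (-0.14, range over the alternatives -0.18 to -0.09), a call lost without Parental 2, Parental 3, IRF2_KO 1 or IRF2_KO 3 and with limma-trend. Tnf (-0.18, adjusted p = 0.306 by edgeR), Nfkbiz (0.07) and Cxcl10 (0.22) were not called. Il1b, Il6, Cxcl2 and Ifnb1 were too low to test, and Il10, Il12b and Acod1 had 0 reads.

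The members' neighbours on the chromosome were read as well. Of 16 flanking protein-coding genes that are no members, 11 were tested, 8 were higher and 1 lower, with a median log2 fold change of 0.25, beside 23.6% of all tested genes in each direction and a median of -0.01. Aldh3b1, next to Unc93b1, rose from 3.06 to 11.5 CPM (1.90, SE 0.10), Atp7a, a copper transporter gene next to Tlr13, was higher (1.18, SE 0.09), and Pgk1, on the other side of Tlr13, rose from 91.5 to 148 CPM (0.69). Klf3 (0.25), Tmem156 (0.38), Prps2 (0.23), Tmsb4x (0.45) and Alas1 (0.25) were also higher, Twf2, next to Tlr9, was lower (-0.22), and Tmem131l (0.07) and Tmco6 (0.07) were not called. On chromosome X, which carries Tlr7, Tlr8 and Tlr13, 30.3% of 380 tested genes were higher and 18.4% lower, with a median of 0.03. Chromosome 3, which carries Tlr2, had the largest share of higher genes of any chromosome. There 38.9% of 568 tested genes were higher and 12.3% lower, with a median of 0.13. On the chromosomes of the other members the share higher was 19.8% to 27.5%.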
